A study of Homo sapiens with 24 samples.

Results

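The 10 genes described here are the transcription factors SNAI1, SNAI2, ZEB1, ZEB2 and TWIST1, the cadherins CDH1, CDH2 and CDH11, and VIM and FN1, which together are the genes most often read to follow an epithelial-mesenchymal transition (EMT). They were chosen by name, as known EMT genes, and they are 10 of the 18417 genes measured. Earlier results of these data were known when they were chosen, so counts of called members are a description and no test of the set. Each gene is given by the Affymetrix probe set that carries its symbol alone, and ZEB2, which had more than 1 such probe set, by the one with the higher mean over all arrays. RNA of MCF10A, a non-tumorigenic line of human breast epithelium, was measured on 24 arrays (Affymetrix Human Gene 1.0 ST) in 12 groups of 2 replicates. The groups are a transfection with an siRNA oligonucleotide against hsa-miR-20a (si-miR-20a), one against hsa-miR-671-5p (si-miR-671) or a non-targeting oligonucleotide (control), each at 0, 30, 60 and 120 min of stimulation with epidermal growth factor (EGF). All groups shared the transfection reagent Oligofectamine and a growth medium that itself held EGF, insulin, hydrocortisone, cholera toxin and horse serum. No untransfected arrays and no arrays kept without EGF for the same times were analysed here, so a change over time and the effect of handling cannot be told apart. Whether the replicates, called biological in the labels, came from separate transfections is not given in the sources used here, so the p-values measure the spread between these samples. The levels of the miRNAs themselves were not measured on these arrays, so the action of the oligonucleotides on miR-20a and miR-671-5p was not checked here.

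In an EMT, epithelial cells loosen their contacts, and the SNAI, ZEB and TWIST factors are the regulators best known to drive it. The SNAI and ZEB proteins bind E-boxes in the promoter of CDH1, the gene of E-cadherin, and repress it. Cells that complete the change often gain N-cadherin (CDH2) or cadherin-11 (CDH11), the intermediate filament protein vimentin (VIM) and the matrix protein fibronectin (FN1). EGF is a growth factor for breast epithelial cells and acts through the EGF receptor and the MAP kinases.

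The mature miRNAs that the oligonucleotides were directed at are shown because they define the transfections. The capitals mark the seed, bases 2 to 8, and the letters are from RefSeq on GRCh38.p14, where miR-20a-5p lies on the plus strand at chr13:91351072-91351094 and miR-671-5p on the plus strand at chr7:151238449-151238471.
hsa-miR-20a-5p: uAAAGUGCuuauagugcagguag
hsa-miR-671-5p: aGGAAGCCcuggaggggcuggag
The seeds AAAGUGC and GGAAGCC differ, and the label of the first oligonucleotide does not name an arm, so the 5p arm is shown for it by choice.

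RefSeq promoter windows of 250 bases before to 50 bases after a gene's start were matched by symbol for 5 of the 10 genes, namely ZEB1, ZEB2, CDH2, VIM and FN1, with 12 windows in all. The E-box read by the SNAI and ZEB factors was searched as CAGGTG on either strand. It was found in 2 of the 12 windows, both among the 7 windows of ZEB1, while 7231 of all 35116 windows (20.6%) held it. One ZEB1 window, at chr10:31318966-31319265 on the plus strand of GRCh38.p14, held it at 3 places, starting 242 and 85 bases before and 33 bases after the gene's start. It is shown because ZEB1 and SNAI2, an E-box repressor, were both higher at 120 min of EGF than at 0 min. The ZEB1 call was lost in 9 of 12 cases when 1 array was left out, and a link between these genes was not tested. The E-boxes are in capitals (CACCTG is the same box on the other strand).
ZEB1 promoter window: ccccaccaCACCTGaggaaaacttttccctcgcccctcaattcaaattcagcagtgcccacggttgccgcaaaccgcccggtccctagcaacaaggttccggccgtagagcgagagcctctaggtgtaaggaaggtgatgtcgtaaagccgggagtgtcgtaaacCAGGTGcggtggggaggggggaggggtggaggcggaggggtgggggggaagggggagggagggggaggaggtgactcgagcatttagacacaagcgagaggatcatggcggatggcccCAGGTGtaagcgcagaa
A match describes these letters and is no evidence of binding, and the arrays carry no measure of it.

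The values are log2 signals as the authors deposited them, and each array had nearly the same distribution, with medians of 6.56 to 6.57 and lower quartiles of 4.95 to 4.97. The 2 replicates of a group correlated at 0.973 to 0.992 over all probe sets. Every difference below is a log2 difference from 1 limma model over the 24 arrays, given with its SE, and a gene was called at a Benjamini-Hochberg adjusted p under 0.05 over 19460 probe sets. Because each group holds 2 arrays, an exact permutation test of 1 group against another cannot go below 0.33. In the 3 transfections the cells had the markers of basal epithelium, led by KRT5 at 12.67 and KRT14 at 11.90. All 6 of the measured basal markers lay above the median of the mean levels of the 19460 tested probe sets. That median, and not the array medians given above, is the cut in the marker counts here (GATA3, at 7.18, was just under it). Of 10 luminal markers 3 lay above the median (KRT8, KRT18 and MUC1). LUM, at 3.66, and PDGFRA, at 5.11, were the lowest of 12 fibroblast and mesenchymal markers. Of these 12, 4 lay above the median: ACTA2 (8.27), S100A4 (7.92), FAP (7.83) and COL1A1 (7.57). Of 10 blood and endothelial markers 3 did, CDH5 (10.25), CD14 (8.04) and CD68 (7.70), while PTPRC, which defines blood cells, was at 4.28. The arrays of si-miR-671 at 60 and 120 min stood apart from those at 0 and 30 min in more probe sets (1804, 9.27%) than in si-miR-20a (1100, 5.65%) or control (473, 2.43%), and results are therefore also given for these times separately.

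CDH11 had the widest range of the 10 genes, a span of 2.05 between its highest and lowest group means that exceeded the span of 99.3% of all probe sets. SNAI2 (1.16) and ZEB2 (1.05) followed, and CDH1 spanned 0.67, ZEB1 0.62, SNAI1 0.55, VIM 0.51, TWIST1 0.42, CDH2 0.35 and FN1 0.33. The pooled SD between replicates was largest for ZEB1, at 0.19, and SNAI1, at 0.18, which had no step between neighbouring group means larger than it in all 11 steps. For these genes the order of the 12 groups is therefore not resolved. In CDH1, with an SD of 0.074, 6 of 11 steps were smaller than the SD, and in CDH11, with an SD of 0.14, 7 of 11.

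**Figure D1:**
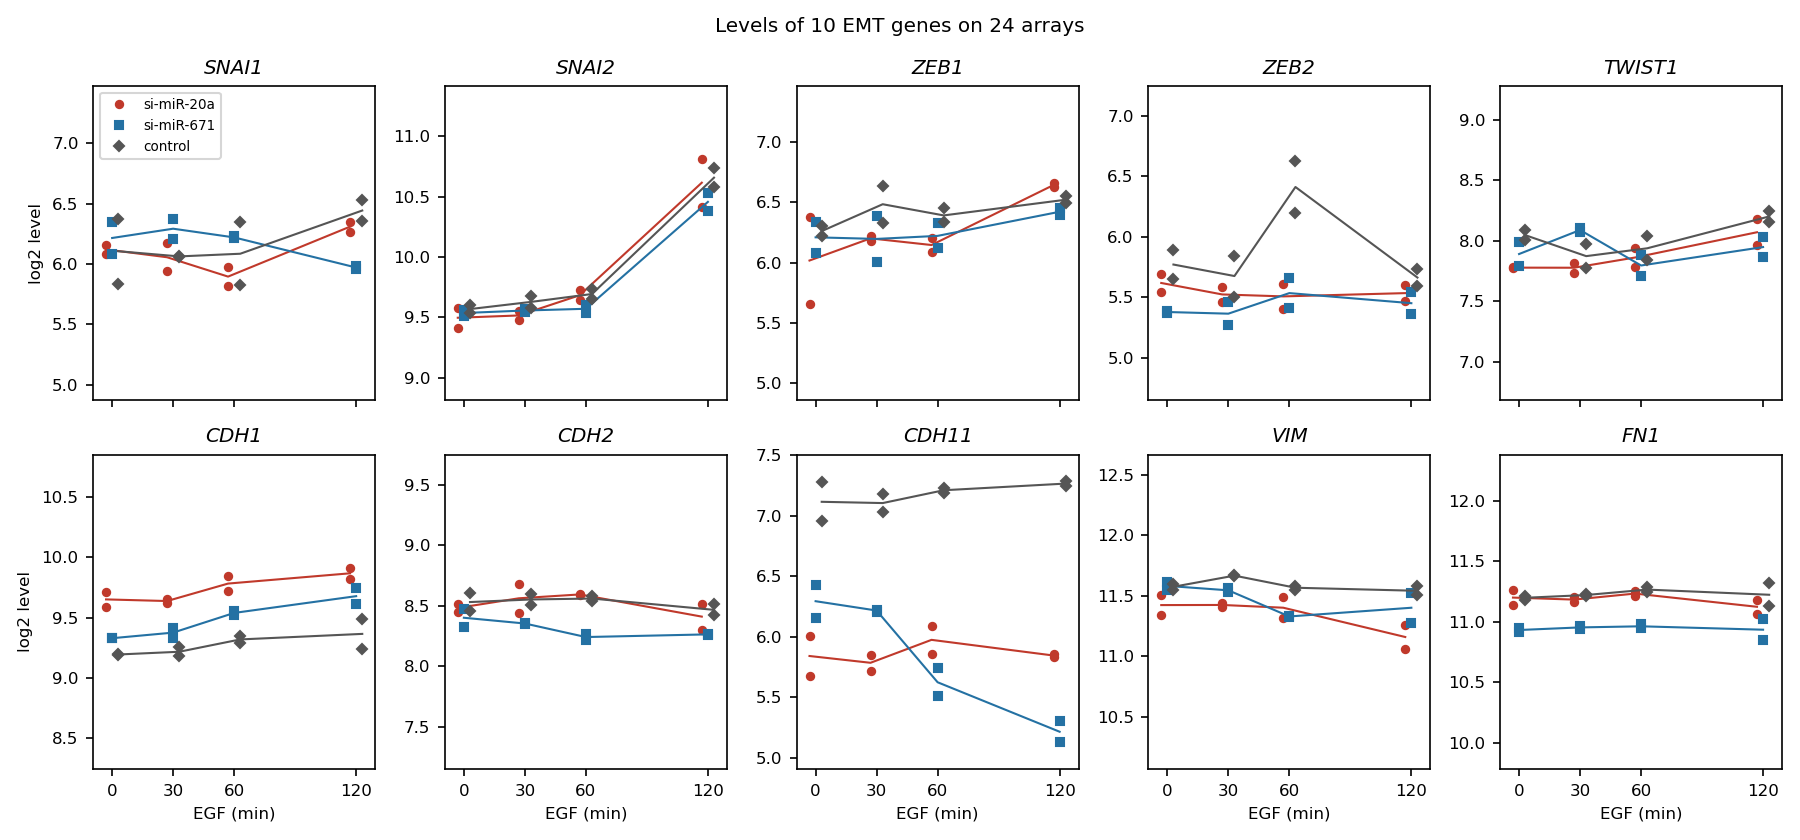
Log2 level of each of the 10 genes in every array (y axis, log2 signal, every panel spanning 2.6 units) against minutes of EGF (x axis, 0, 30, 60 and 120). Red circles are si-miR-20a arrays, blue squares si-miR-671 and grey diamonds control, and lines join group means of 2 arrays. CDH11 is highest in all control arrays, SNAI2 is higher at 120 min in every transfection, and ZEB2 has 2 high control arrays at 60 min.

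Averaged over the 4 times, si-miR-20a changed 4 of the 10 genes against control. CDH1 was higher, and CDH11, ZEB2 and VIM were lower, while SNAI1, SNAI2, ZEB1, TWIST1, CDH2 and FN1 did not pass the test. Of all probe sets 24.5% were called in the same comparison (11.9% higher and 12.7% lower), a broad response against which the 4 of 10 are to be read. The members' median absolute difference was 0.15, against 0.12 over all probe sets. With si-miR-671, 5 of the 10 were called, against 14.5% of all probe sets (6.79% higher and 7.70% lower). CDH1 was again higher and CDH11, ZEB2, CDH2 and FN1 lower, with a median absolute difference of 0.18, against 0.09 over all probe sets. The comparisons share the 8 control arrays, so an unusual control value enters both.

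CDH11, a cadherin known from mesenchymal and bone-forming cells, had the largest differences among these genes. Its levels with si-miR-20a were 6.0 and 5.68 at 0 min, 5.72 and 5.85 at 30 min, 6.09 and 5.86 at 60 min and 5.86 and 5.83 at 120 min. With si-miR-671 they were 6.43 and 6.16, 6.22 and 6.21, 5.74 and 5.51, and 5.30 and 5.13 at the same times. In control they were 7.28 and 6.95, 7.18 and 7.03, 7.23 and 7.19, and 7.28 and 7.25. Every array of both miRNA transfections lay below every control array, the highest of them at 6.43 and the lowest control array at 6.95. The 4 control times stood at the top of the order, and no step between neighbours among them, or among the 4 si-miR-20a times, exceeded the replicate SD. The si-miR-671 groups at 60 and 120 min were the lowest of the 12.

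Averaged over times, CDH11 was 2.49-fold lower with si-miR-20a than in control (a log2 difference of -1.31 ± 0.07, limma adjusted p = 1e-08, n = 8 arrays each). With si-miR-671 it was 2.53-fold lower (-1.34 ± 0.07, limma adjusted p = 1.7e-08, n = 8 each). Groups without overlap were found for 2 of the 10 genes in the first comparison, CDH11 and CDH1, against 5.89% of all probe sets, and for 2 in the second, CDH11 and FN1, against 3.73%. The lowest CDH11 levels were near the lower quartile of the arrays. Detection calls were not used here, so it was not tested whether those levels were above background, and a level near it understates a fold. In these bulk samples, fewer cells that express a gene and less RNA per cell cannot be told apart.

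CDH11 took a different course over time in the 2 miRNA transfections. The difference from control with si-miR-20a was -1.28, -1.32, -1.24 and -1.42 at 0, 30, 60 and 120 min, and each was called (largest limma adjusted p = 0.00018), in comparisons that called 3.32%, 5.10%, 6.19% and 10.1% of all probe sets. With si-miR-671 it was -0.82, -0.89, -1.59 and -2.05, with adjusted p of 0.016, 0.012, 1.6e-05 and 1.2e-06, in comparisons that called 0.540%, 0.457%, 8.18% and 5.58%. Leaving out 1 array ended the si-miR-671 call at 0 min in 3 of 4 cases, all but that without control replicate 2, and at 30 min in 4 of 4, and ended none of the others.

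Over 0 and 30 min together si-miR-671 stood at -0.86 against control (limma adjusted p = 0.00027, 2.81% of all probe sets called), and over 60 and 120 min at -1.82 (adjusted p = 3.3e-08, 15.4% called). The change between those differences, a test chosen after the data were seen, was -0.96 ± 0.14 (limma adjusted p = 0.0097), in a comparison that called 0.519% of all probe sets, and CDH11 was the only 1 of the 10 genes called in it. Between si-miR-20a and si-miR-671 the difference was 0.02 ± 0.07 averaged over times (95% interval -0.12 to 0.17, adjusted p = 0.9), made of -0.44 over 0 and 30 min (adjusted p = 0.016, 7.51% of all probe sets called) and 0.49 over 60 and 120 min (adjusted p = 0.026, 1.13% called). Those early and late calls were lost without 1 array in 4 of 8 and 5 of 8 cases, and the arrays concerned are given with the alternatives. The change between 0 and 120 min in si-miR-671 less that in control was -1.23 ± 0.20 (adjusted p = 0.034, with 0.0668% of all probe sets called), a call lost in 8 of 8 cases without 1 array. For si-miR-20a against si-miR-671, the change between the early and the late difference was 0.93 ± 0.14 (adjusted p = 0.011, also chosen after the data were seen), with 1.33% of all probe sets called. A planned test of any difference in EGF response over the 3 later times missed the threshold for CDH11 in si-miR-671 against control (limma moderated F, adjusted p = 0.051, unadjusted p = 3.63e-05). It called 0 of the 10 genes in either miRNA transfection, against 0.0514% of all probe sets in si-miR-671 and 0.0154% in si-miR-20a. At an unadjusted p under 0.05, 4 members passed in si-miR-671 (SNAI1, ZEB2, TWIST1 and CDH11), against 9.13% of all probe sets, and 1, ZEB2, in si-miR-20a, against 5.29%.

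CDH1 encodes E-cadherin, the adhesion protein of epithelial junctions, and was higher in both miRNA transfections. Its levels with si-miR-20a were 9.59 and 9.71 at 0 min, 9.65 and 9.62 at 30 min, 9.84 and 9.72 at 60 min and 9.82 and 9.91 at 120 min. With si-miR-671 they were 9.33 and 9.33, 9.42 and 9.33, 9.52 and 9.56, and 9.61 and 9.74. In control they were 9.19 and 9.20, 9.25 and 9.18, 9.29 and 9.35, and 9.49 and 9.24. All si-miR-20a arrays lay above all control arrays, and the si-miR-671 arrays overlapped both. The order of the group means ran from si-miR-20a at 120 min (9.87) down to control at 0 min (9.19). The si-miR-671 groups at 0 and 30 min and the control groups at 60 and 120 min, between 9.32 and 9.38, lay within the replicate SD of each other.

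Averaged over times, CDH1 was 1.38-fold higher with si-miR-20a than in control (0.46 ± 0.04, limma adjusted p = 2.9e-06) and 1.15-fold higher with si-miR-671 (0.21 ± 0.04, adjusted p = 0.0049). It was higher with si-miR-20a than with si-miR-671 by 0.25 ± 0.04 (95% interval 0.16 to 0.35, adjusted p = 0.0047), in a comparison that called 4.54% of all probe sets and 3 of the 10 genes. By time, si-miR-20a minus control was 0.46, 0.42, 0.46 and 0.50, each called (limma adjusted p of 0.0095, 0.013, 0.0057 and 0.0029). The calls at 0, 30 and 60 min were lost in 3, 4 and 2 of 4 cases when 1 array was left out, with adjusted p up to 0.12, while that at 120 min was kept. At 0 min the call was kept without si-miR-20a replicate 1, and at 60 min it was lost without control replicate 1 or si-miR-20a replicate 1. For si-miR-671 the differences of 0.13, 0.16, 0.22 and 0.31 were not called at any single time. Over 0 and 30 min together the si-miR-671 difference was 0.15 (adjusted p = 0.31), and over 60 and 120 min 0.27 (adjusted p = 0.0093). The difference between the miRNA transfections was not called over 60 and 120 min alone (0.22, adjusted p = 0.13).

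CDH2, the gene of N-cadherin, which many mesenchymal and neural cells use in place of E-cadherin, moved little. Its arrays had a lowest, median and highest level of 8.22, 8.30 and 8.48 with si-miR-671, against 8.42, 8.53 and 8.61 in control. These ranges overlapped at their edges, and the difference was -0.21 ± 0.05 (limma adjusted p = 0.0072). Without the 60 min arrays it was -0.18 (adjusted p = 0.068), and over 0 and 30 min alone -0.16 (adjusted p = 0.29). With si-miR-20a it was -0.02 (adjusted p = 0.87). Against si-miR-671, si-miR-20a was higher by 0.20 ± 0.05 (adjusted p = 0.03), but this call was lost in 11 of 16 cases when 1 array was left out (adjusted p between 0.018 and 0.08). It was also lost with all probe sets tested (adjusted p = 0.058) and with only the arrays compared (adjusted p = 0.091). CDH1 and CDH2 thus differed from control in opposite directions with si-miR-671, whereas with si-miR-20a only CDH1 passed the test.

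VIM and FN1 encode a filament of the mesenchymal cytoskeleton and a matrix protein, and each was lower in 1 of the miRNA transfections. VIM had a lowest, median and highest level of 11.06, 11.38 and 11.51 with si-miR-20a, against 11.51, 11.58 and 11.67 in control. The ranges touched, with most si-miR-20a arrays below the control arrays, and the difference was -0.24 ± 0.05 (limma adjusted p = 0.002). Over 0 and 30 min alone it was -0.20 (adjusted p = 0.076). With si-miR-671 VIM was at -0.12 (adjusted p = 0.11). The direct difference, -0.11 with a 95% interval of -0.21 to -0.01, was not called (adjusted p = 0.22). By time, VIM was called in si-miR-20a at 120 min alone, at -0.38 (adjusted p = 0.021), and this was lost in 3 of 4 cases without 1 array, all but that without si-miR-20a replicate 1.

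FN1 was at 10.85, 10.95 and 11.02 (lowest, median and highest) with si-miR-671, against 11.13, 11.22 and 11.32 in control, with no overlap. The difference was -0.28 ± 0.04 (limma adjusted p = 0.00025), and with si-miR-20a it was -0.04 (adjusted p = 0.53). FN1 was higher with si-miR-20a than with si-miR-671 by 0.24 ± 0.04 (95% interval 0.15 to 0.33, adjusted p = 0.0043), also without overlap, which 0.545% of all probe sets showed. Over 60 and 120 min alone that difference was 0.23 and not called (adjusted p = 0.08). FN1 was thus the member whose arrays of the 2 miRNA transfections did not overlap.

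**Figure D2:**
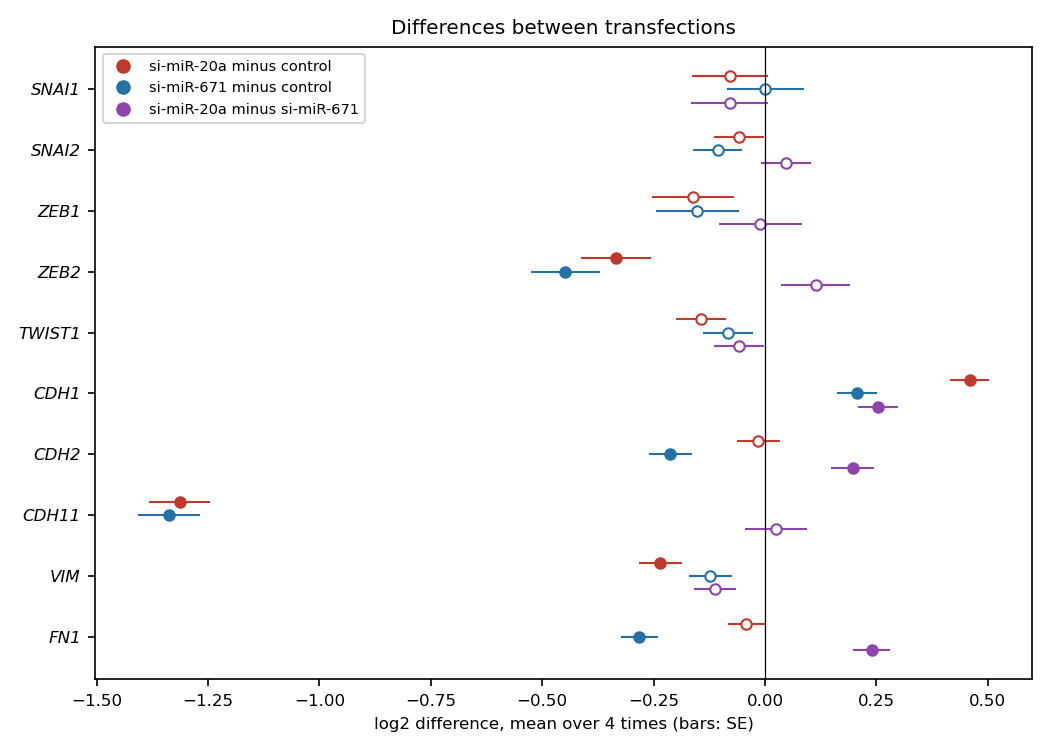
Log2 difference between transfections averaged over 4 times (x axis) for each of the 10 genes (y axis), with bars of ± 1 SE from the limma fit. Red circles are si-miR-20a minus control, blue circles si-miR-671 minus control and purple circles si-miR-20a minus si-miR-671. Circles are filled where the adjusted p was under 0.05. Against control CDH11 lies at -1.31 and -1.34 and CDH1 at 0.46 and 0.21, and the 4 transcription factors other than ZEB2 have open symbols.

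Among the transcription factors, ZEB2 was the only 1 of 5 called against control, and control was highest at 60 min. ZEB2 encodes a zinc finger repressor related to ZEB1. The probe set used for ZEB2 had a mean of 5.62 over the 24 arrays, and 22.9% of the tested probe sets had a lower mean. Whether that level was above background was not tested. At 60 min its levels were 5.40 and 5.61 with si-miR-20a and 5.41 and 5.66 with si-miR-671, against 6.62 and 6.20 in control. At 0, 30 and 120 min control was at 5.65 and 5.89, 5.50 and 5.84, and 5.59 and 5.73, levels which the si-miR-20a arrays (5.46 to 5.69 at those times) overlapped. The si-miR-671 arrays were then at 5.38 and 5.37, 5.46 and 5.27, and 5.54 and 5.36, and all but the first at 120 min lay below the lowest control array. The control group at 60 min, at a mean of 6.41, stood at the top of the 12 groups and apart from all others.

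Averaged over times, ZEB2 differed from control by -0.33 ± 0.08 with si-miR-20a (limma adjusted p = 0.0051) and by -0.45 ± 0.08 with si-miR-671 (adjusted p = 0.001). Without the 60 min arrays, an alternative chosen after the data were seen, these were -0.14 (adjusted p = 0.31) and -0.31 (adjusted p = 0.051), and neither was called. At 60 min alone they were -0.90 (adjusted p = 0.0029) and -0.88 (adjusted p = 0.003). Without control replicate 1 at 60 min these calls were lost, with adjusted p of 0.052 and 0.053. A second ZEB2 probe set, not used for the tests, had means of 3.80 with si-miR-20a and 3.78 with si-miR-671, against 3.85 in control. Its control means were 3.69, 4.35, 3.65 and 3.71 at 0, 30, 60 and 120 min, so it was not highest at 60 min. At 60 min it was at 3.64 with si-miR-20a and 3.84 with si-miR-671. All these levels lie below the lower quartile of the arrays.

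The other factors had no called difference from control in either transfection. SNAI1, the founding repressor of the SNAI family, was at -0.08 with si-miR-20a (limma adjusted p = 0.58) and 0.00 with si-miR-671 (adjusted p = 1). SNAI2, also known as Slug, which basal breast cells normally express, was at -0.06 (adjusted p = 0.51) and -0.11 (adjusted p = 0.26). ZEB1 was at -0.16 (adjusted p = 0.24) and -0.15 (adjusted p = 0.35), and TWIST1, a basic helix-loop-helix factor, at -0.14 (adjusted p = 0.079) and -0.08 (adjusted p = 0.41). CDH1, which these factors repress in other settings, was higher in both miRNA transfections averaged over times, where only ZEB2 of the 5 was called. A link between CDH1 and any of these factors was not tested.

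**Figure D3:**
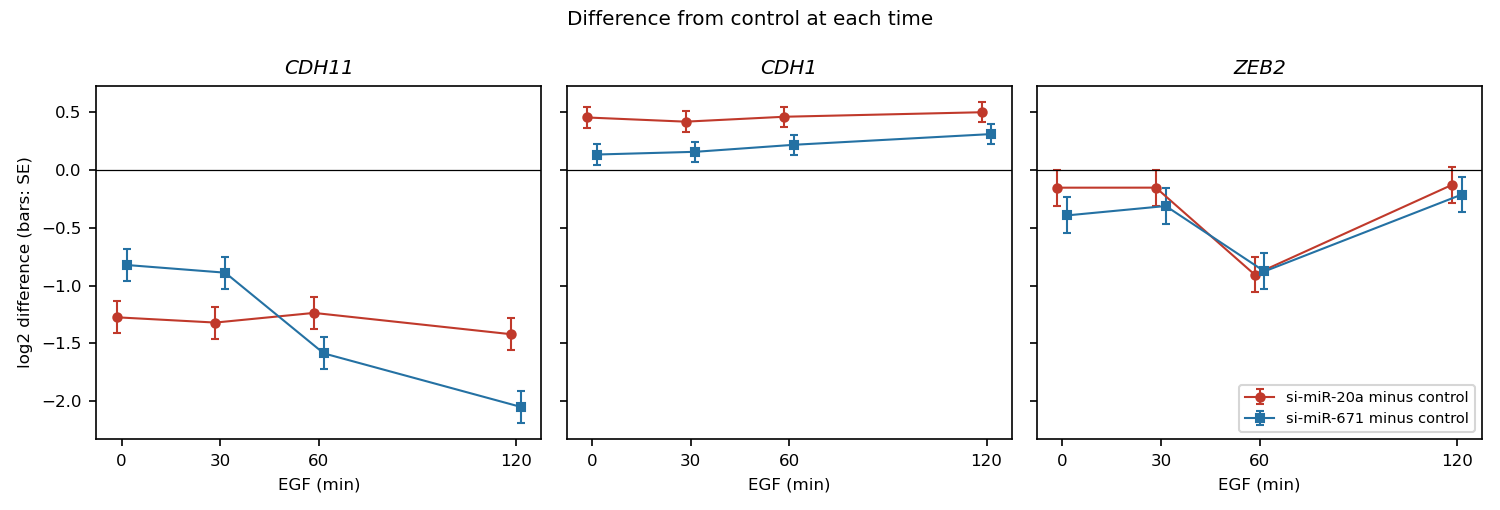
Log2 difference from control (y axis) against minutes of EGF (x axis) for CDH11, CDH1 and ZEB2, with bars of ± 1 SE and 2 arrays per group. Red circles are si-miR-20a and blue squares si-miR-671. CDH11 with si-miR-671 lies at -0.82 at 0 min and -2.05 at 120 min, and ZEB2 lies near -0.9 at 60 min in both.

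Against 0 min of EGF, these genes had no call at 30 min or at 60 min, and 4 of them were called at 120 min. These differences are averaged over the 3 transfections (6 arrays a time). At 30 min 0 of 10 were called, against 0.766% of all probe sets, and 0 passed an unadjusted p under 0.05, against 5.74%. At 60 min 0 of 10 were called, against 2.66%, and CDH1 (0.15) and ZEB2 (0.23) had unadjusted p of 0.00852 and 0.0226, where 12.1% of all probe sets were under 0.05. At 120 min SNAI2, ZEB1 and CDH1 were higher and CDH11 lower than at 0 min, against 13.4% of all probe sets (7.13% higher and 6.27% lower). The members' median absolute difference at 120 min was 0.16, against 0.11 over all probe sets.

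SNAI2 had the largest EGF difference of the 10 genes averaged over the transfections, while within si-miR-671 that of CDH11 was larger in size. At 120 min its levels were 10.42 and 10.81 with si-miR-20a, 10.38 and 10.53 with si-miR-671 and 10.73 and 10.58 in control. At 0 min they were 9.58 and 9.42, 9.56 and 9.51, and 9.60 and 9.54 in the same transfections. No array at 30 or 60 min exceeded 9.73, so the 6 arrays at 120 min stood apart from the other 18. The difference between 120 and 0 min was 1.04 ± 0.06, or 2.06-fold (limma adjusted p = 2.7e-08). It was 1.12 with si-miR-20a (adjusted p = 1.9e-05), 0.92 with si-miR-671 (adjusted p = 0.00012) and 1.09 in control (adjusted p = 2.6e-05), where 7.64%, 5.95% and 2.96% of all probe sets were called, and leaving out any 1 array of those compared kept each call. The test of a different EGF response did not pass for SNAI2 in si-miR-20a (adjusted p = 1) or si-miR-671 (adjusted p = 0.93) against control. The 3 groups at 120 min led the order of the 12.

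ZEB1, an E-box repressor of CDH1, had a lowest, median and highest level of 6.39, 6.52 and 6.66 at 120 min, against 5.66, 6.26 and 6.37 at 0 min. The times did not overlap, as in 4.19% of all probe sets, and the difference was 0.37 ± 0.11 (limma adjusted p = 0.035). This call was lost in 9 of 12 cases when 1 array was left out, with adjusted p of 0.0015 to 0.1. It was also lost with all probe sets tested (adjusted p = 0.054) and with only the arrays compared (adjusted p = 0.1). The lowest array, si-miR-20a replicate 1 at 0 min at 5.66, was far from its replicate at 6.37. Group means at 0 and 120 min were 6.02 and 6.64 with si-miR-20a, 6.21 and 6.42 with si-miR-671, and 6.26 and 6.52 in control. Within no single transfection was ZEB1 called at 120 min.

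CDH1 was higher at 120 min than at 0 min by 0.24 ± 0.05 (limma adjusted p = 0.0046), in the same arrays in which SNAI2 and ZEB1 were higher. Within transfections it differed by 0.22 with si-miR-20a (adjusted p = 0.16), 0.35 with si-miR-671 (adjusted p = 0.03) and 0.17 in control (adjusted p = 0.49). The si-miR-671 call was lost in 4 of 4 cases without 1 array. The averaged call was lost with only the arrays compared (adjusted p = 0.063) and without the si-miR-671 arrays (0.19, adjusted p = 0.068).

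CDH11 averaged -0.31 ± 0.08 at 120 min against 0 min (limma adjusted p = 0.019), and this rested on 1 transfection. With si-miR-671 it fell by 0.67 at 60 min (adjusted p = 0.019, 2.06% of all probe sets called) and by 1.08 at 120 min (adjusted p = 0.00019), whereas at 120 min it differed by 0.00 with si-miR-20a and by 0.15 in control. Without the si-miR-671 arrays the average was 0.077 (adjusted p = 0.74). The call was also lost with only the arrays compared (adjusted p = 0.084) and without replicate 1 of control, si-miR-671 or si-miR-20a at 0 min. The 60 min call in si-miR-671 was lost without its replicate 1 at 0 min or replicate 2 at 60 min.

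The remaining genes had no called EGF difference at 120 min. VIM stood at -0.16 (limma adjusted p = 0.073, and 0.026 to 0.05 with dim probe sets left out, a variance trend or quantile normalization), TWIST1 at 0.17 (adjusted p = 0.1), CDH2 at -0.09 (adjusted p = 0.34), SNAI1 at 0.09 (adjusted p = 0.63), ZEB2 at -0.04 and FN1 at -0.02. SNAI1 had lowest and highest levels of 5.82 and 6.53 over all 24 arrays, and its replicates differed by as much as 5.84 and 6.37 in control at 0 min.

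**Figure D4:**
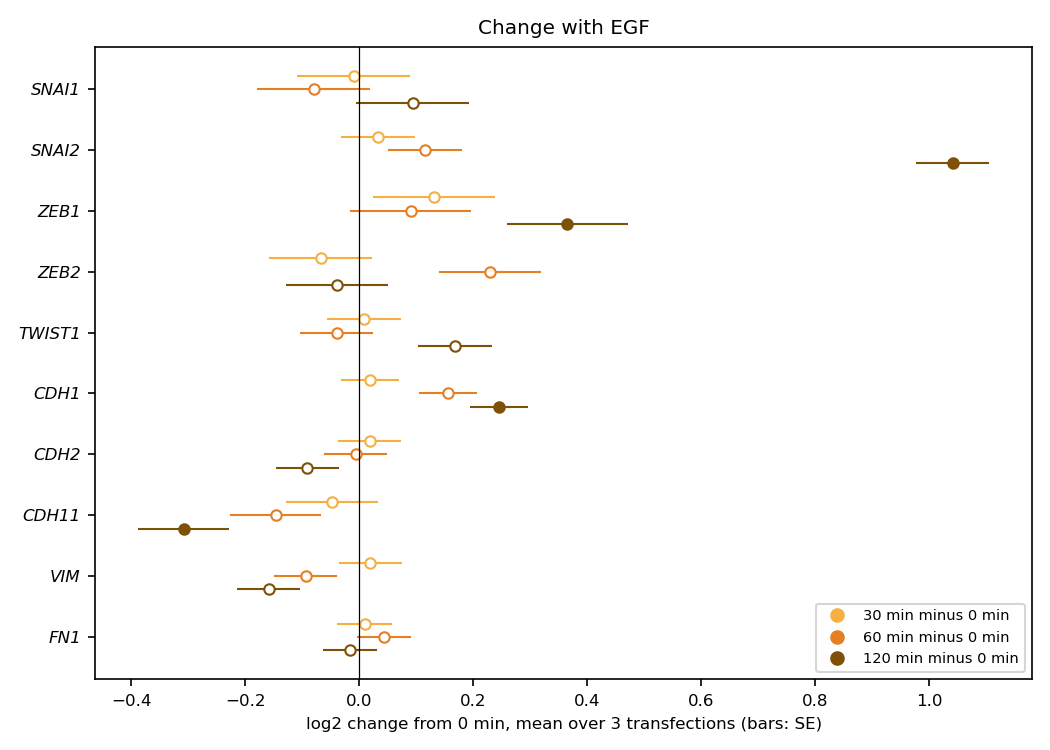
Log2 change from 0 min (x axis) at 30, 60 and 120 min of EGF, averaged over the 3 transfections, for each of the 10 genes (y axis), with bars of ± 1 SE. Filled symbols mark an adjusted p under 0.05. SNAI2 lies at 1.04, ZEB1 at 0.37, CDH1 at 0.24 and CDH11 at -0.31 at 120 min, and the symbols at 30 and 60 min are open.

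The probe sets whose 12 group means followed a gene most closely were found among 1648 with a span of at least 1, as a description without a test. For SNAI2 they were MIRLET7A2, CREB5 and DUSP7, with Pearson r of 0.987, 0.987 and 0.982. For CDH11 they were PCBP3 (0.983), LRRN1 (0.981) and PDZK1IP1 (0.980). ZEB2, with its single high group, had weaker matches in CTSO (0.765), SLC2A12 (0.759) and CD36 (0.750).

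The lists of related genes that follow are to be read against 24.5% of all probe sets called with si-miR-20a, 14.5% with si-miR-671 and 13.4% at 120 min of EGF, with median absolute differences of 0.12, 0.09 and 0.11. In the same order the lists' medians were 0.07, 0.05 and 0.22 for other EMT factors, 0.18, 0.13 and 0.17 for epithelial factors, and 0.12, 0.09 and 0.14 for catenins and adherens junction genes. They were 0.16, 0.13 and 0.12 for other cadherins, 0.16, 0.17 and 0.16 for fibronectin partners and matrix, and 0.10, 0.05 and 0.08 for intermediate filaments.

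Among other EMT transcription factors, 1 of 11 measured was called with either miRNA oligonucleotide against control, and none was lower. This was KLF8, a zinc finger factor that represses CDH1, at 0.41 ± 0.06 with si-miR-20a and 0.25 ± 0.06 with si-miR-671 (limma adjusted p of 0.00026 and 0.015). At 120 min of EGF 4 were higher and 0 lower: SOX9 by 1.25 ± 0.07 (adjusted p = 1.8e-08), ZNF281 by 0.87 ± 0.06, GATA6 by 0.75 ± 0.06 and SNAI3 by 0.31 ± 0.10. ZNF281, a zinc finger factor, was higher already at 30 min (0.53) and 60 min (0.82). SOX9, a high mobility group factor (0.45), and GATA6, a GATA factor of endoderm (0.26), were higher at 60 min as well, the 3 called of 11 at that time, while ZNF281 was the 1 called at 30 min.

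Of 11 epithelial factors, which maintain or restore epithelial genes, 1 was higher and 2 lower in each miRNA transfection against control. ESRP2, a splicing regulator of epithelial isoforms, was higher by 0.18 ± 0.06 with si-miR-20a and 0.20 ± 0.06 with si-miR-671. ELF3, an ETS factor of epithelia, stood at -1.03 ± 0.09 and -0.42 ± 0.09, and differed between them by -0.62 ± 0.09 (limma adjusted p = 0.0012). KLF4, a Krüppel-like factor, stood at -0.45 ± 0.06 and -0.23 ± 0.06. At 120 min of EGF 3 were higher, GRHL3 (0.95 ± 0.07), KLF4 (0.92 ± 0.07) and KLF5 (0.69 ± 0.05), and 2 lower, ELF3 (-2.30 ± 0.10, adjusted p = 4.6e-10) and EHF (-0.50 ± 0.06). KLF4 was the 1 higher at 30 min (0.61). Of these factors, ELF3 was the 1 called between si-miR-20a and si-miR-671, where 4.54% of all probe sets were called.

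Among 13 catenins and adherens junction genes, 4 were higher and 1 lower with si-miR-20a, and 2 higher and 1 lower with si-miR-671. The catenins CTNNA1 (0.12 ± 0.04) and JUP (0.15 ± 0.04) were higher with si-miR-20a. EPCAM, an epithelial adhesion protein, was higher by 0.43 ± 0.07 with si-miR-20a and 0.50 ± 0.07 with si-miR-671 (limma adjusted p of 0.00022 and 0.00011). PVR, a nectin-like adhesion protein, was higher by 0.31 ± 0.05 and 0.24 ± 0.05, and CTNNBIP1, an inhibitor of beta-catenin, stood at -0.22 ± 0.05 and -0.16 ± 0.05. At 120 min of EGF 5 were higher and 0 lower, led by VCL, the gene of vinculin, at 0.56 ± 0.09 (adjusted p = 0.00067), with PVR, AFDN, NECTIN3 and CTNNB1, the gene of beta-catenin (0.18 ± 0.05). Of the 15 other cadherins, 1 was higher and 2 lower with si-miR-20a, and 1 higher and 1 lower with si-miR-671. CDH3, the P-cadherin of basal breast cells, stood at -0.11 ± 0.04 and -0.17 ± 0.04 in these, beside CDH10 (0.33 ± 0.11) and CDH26 (-0.25 ± 0.06) with si-miR-20a and CDH24 (0.22 ± 0.07) with si-miR-671. CDH3 was higher at 120 min of EGF by 0.17 ± 0.04 (adjusted p = 0.014).

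Of 19 desmosome and tight junction genes, 3 were higher and 4 lower with si-miR-20a, and 3 higher and 3 lower with si-miR-671. PKP2, a desmosomal plaque protein, was higher by 0.38 ± 0.05 and 0.32 ± 0.05, and CLDN7, a claudin, by 0.31 ± 0.04 and 0.24 ± 0.04. DSC2, a desmosomal cadherin, stood at -0.33 ± 0.04 and -0.35 ± 0.04 (limma adjusted p of 4.3e-05 and 4.6e-05), and CLDN1 at -0.28 ± 0.04 and -0.36 ± 0.04. DSC3 was lower and TJP1 higher in both, and CLDN4 was lower with si-miR-20a. The list's median absolute difference was 0.07 with si-miR-20a and 0.10 with si-miR-671, and the calls went in both directions, as over all probe sets. At 120 min of EGF 4 were higher and 0 lower, PKP2 (0.57 ± 0.06), MARVELD2 (0.45 ± 0.07), CLDN4 (0.64 ± 0.15) and TJP1 (0.38 ± 0.05), a tight junction scaffold.

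Fibronectin's receptors and matrix partners were counted over 18 genes, of which 4 were higher and 7 lower with si-miR-20a, and 2 higher and 8 lower with si-miR-671. LOX, a collagen cross-linking enzyme, stood at -1.07 ± 0.07 with si-miR-20a and -0.92 ± 0.07 with si-miR-671 (limma adjusted p of 5.8e-08 and 4.1e-07). FBN1, the gene of fibrillin, stood at -0.68 ± 0.05 and -0.75 ± 0.05, and the integrin subunit ITGAV at -0.47 ± 0.05 and -0.46 ± 0.05. Higher were ITGA4 and CCN2 in both, and LOXL2 and THBS1 with si-miR-20a. At 120 min of EGF 5 were higher, with ITGA5, ITGB1, TNC and THBS1, and 2 lower, FBN1 and MMP2. They were led by CCN2, a matricellular protein, at 2.33 ± 0.05 (adjusted p = 1.3e-13), which was higher by 2.66 at 30 min and 3.07 at 60 min. Of 10 intermediate filament genes beside VIM, 2 were higher and 0 lower in each miRNA transfection, KRT14 (0.26 ± 0.03 and 0.17 ± 0.03) and KRT7 (0.20 ± 0.04 and 0.16 ± 0.04). At 120 min of EGF PLEC was higher (0.26 ± 0.08) and KRT15 lower (-0.26 ± 0.05).

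Of the 12 fibroblast and mesenchymal markers, 2 were higher (DCN and FAP) and 3 lower (POSTN, ACTA2 and S100A4) with si-miR-20a, and 0 higher and 2 lower (POSTN and ACTA2) with si-miR-671, where 24.5% and 14.5% of all probe sets were called. The median of the 12 differences was 0.03 with si-miR-20a and -0.08 with si-miR-671. Between si-miR-20a and si-miR-671, DCN and FAP were higher with si-miR-20a, by 0.46 ± 0.08 and 0.38 ± 0.06 (limma adjusted p of 0.0068 and 0.0036). That comparison called 4.54% of all probe sets. The summed linear signal of the 12 ran from 1372 to 1632 per array with si-miR-20a and from 1260 to 1558 with si-miR-671, against 1488 to 1708 in control, and no marker was at 0 because the values are on a log2 scale. The part of other cell types in the lower CDH11, VIM and FN1 was not tested.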

How the data were processed

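The data are log2 signals per probe set, deposited by the authors, who used Affymetrix Expression Console per the submitters' processing notes. Its version, the summarisation, the background correction and the normalization are not given in the sources used here, and that the logarithm is to base 2 follows from the range of the signals. Array maxima were 13.0 to 13.2, and the values were used as deposited.

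Probe sets were named from the platform's gene annotation. Of 33297, 19460 had 1 symbol and were tested, 1754 had several and 12083 were not listed, and both of these kinds were left out. A gene with several probe sets was described by the one with the highest mean over the 24 arrays.

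All differences come from limma (version 3.58.1, R 4.3.3), fitted with a mean for each group and eBayes, and adjusted by Benjamini-Hochberg. The fit had 12 residual degrees of freedom, 2.57 prior ones and a prior SD of 0.136. It was also run on simulated data with independent noise and few changed probe sets. The data here had many, so that run is no support for the counts given. The number of arrays limits the precision. Comparisons were each miRNA transfection against control, si-miR-20a against si-miR-671, and each EGF time against 0 min, averaged and singly. Alternatives covered normalization, a filter on dim probe sets, the variance trend, all probe sets, only the arrays compared, early or late times, the replicate number as a block and leaving out each array. Promoter and miRNA sequences are RefSeq's on GRCh38.p14.

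The 10 genes and the gene lists were chosen with earlier results of these data known. The named genes of a list are the called ones with the smallest p, up to 3 a list and comparison, and others are named where a count of 5 or fewer is given. Counts over a list cover its genes measured by a probe set with 1 symbol, and some listed genes are not reported here. The protocol text names hsa-miR-212, which no sample here carries, and it was not analysed here. Figures were drawn with matplotlib 3.10.9.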

Additional observations from a re-analysis of the deposited data

Results flagged for a closer look

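CDH11 gave the 3 called results in which a difference between transfections changed over time, all of them tests added after the data were seen. The difference of si-miR-671 from control changed by -0.96 ± 0.14 between 0 and 30 min and 60 and 120 min (limma adjusted p = 0.0097), and this was kept in 16 of 16 fits without 1 array, with adjusted p between 0.01 and 0.04. The difference of si-miR-20a from si-miR-671 changed by 0.93 ± 0.14 over the same times (adjusted p = 0.011), also kept in 16 of 16, with adjusted p between 0.0064 and 0.039. The change between 0 and 120 min in si-miR-671 minus that in control was -1.23 ± 0.20 (adjusted p = 0.034), but it was lost in 8 of 8 fits without 1 array, with adjusted p between 0.05 and 0.23. These share the si-miR-671 arrays, and the first and the last also share the control arrays. With si-miR-671, arrays at 60 and 120 min differed from earlier ones in 9.27% of all probe sets, and the part of that difference in the CDH11 result was not tested.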

How the results depend on the processing

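The counts that moved by over 1.5 times are given with the alternative that moved them. For si-miR-20a against control (4771 probe sets and 4 of the 10 genes called), 0 and 30 min alone gave 2328 and 2. For si-miR-671 against control (2820 and 5), leaving out dim probe sets left 3 genes, since CDH11 and ZEB2 were not tested there, 0 and 30 min gave 546 and 2, and leaving out 60 min, chosen after seeing the data, gave 1556 and 3. For si-miR-20a against si-miR-671 (884 and 3), leaving out dim probe sets gave 1347, only the arrays compared 370, 0 and 30 min 1461, and 60 and 120 min 219 and 1. For EGF at 30 min (149 called) leaving out si-miR-671 gave 95. For EGF at 120 min (2607 and 4), only the arrays compared gave 1390 and 1, which was SNAI2, and leaving out si-miR-671 left 2 genes. CDH11 turned its direction for si-miR-20a against si-miR-671 over 0 and 30 min (-0.44, limma adjusted p = 0.016, against 0.02 over all times), and at 120 min of EGF without the si-miR-671 arrays (a log2 difference of 0.077, adjusted p = 0.74, against -0.31). When each array was left out in turn, si-miR-20a against control called 4121 to 5103 probe sets and 4 to 5 of the 10 genes, and si-miR-671 against control 2219 to 2691 and 5 to 6. For si-miR-20a against si-miR-671 the ranges were 478 to 1512 and 2 to 3, for EGF at 30 min 122 to 146 and 0 to 0, at 60 min 377 to 488 and 0 to 0, and at 120 min 1920 to 3309 and 2 to 6. The test of a different EGF response called 0 to 15 for si-miR-20a (3 with all arrays) and 3 to 18 for si-miR-671 (10 with all arrays). The early CDH11 difference between the miRNA transfections was lost without si-miR-671 replicate 1 at 0 or 30 min, si-miR-20a replicate 2 at 0 min or replicate 1 at 30 min. The late one was lost without si-miR-671 replicate 2 at 60 min, either si-miR-671 replicate at 120 min, si-miR-20a replicate 1 at 60 min or its replicate 2 at 120 min.

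The replicate numbers do not pair the samples, since the replicate differences of the 66 pairs of groups correlated between -0.57 and 0.55, with 30 above 0.1. With the replicate number as a block, the counts were 4862, 2847, 950, 154, 542 and 2752 in the order above, with 4, 5, 3, 0, 0 and 4 of the 10 genes, and the test of a different EGF response called 1 in si-miR-20a and 15 in si-miR-671. CDH11 in that test had an adjusted p of 0.0097 with the block, against 0.051 without it. With si-miR-20a, TWIST1 was called once dim probe sets were left out (-0.14, adjusted p = 0.039), and with si-miR-671 VIM was called with a variance trend (-0.12, adjusted p = 0.044). Among 1286 values of the 10 genes under an alternative, called or not, 62 changed sign while called neither there nor in the main fit. Signal over background was not measured here, and the number of arrays limits the precision.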
